A study of Mus musculus with 4 samples.

Results

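The 9 genes described here, Xaf1, Serpina1b, Tmem178, Lsm12, Ocel1, Pdlim2, Chn2, Cryba4 and Kank4, were chosen by their readings in these same data: each has a probe set (a group of short array probes for 1 transcript) that read about 2 log2 units or more lower on both V1a knockout arrays than in wild type. They are 9 of 18193 genes that the array names with a probe set of their own, and of 10110 such genes bright enough to be tested. Adrenal RNA came from male mice aged 2 months, V1a KO or wild type, with 2 arrays per genotype. V1a is a vasopressin receptor that couples to Gq, which acts through phospholipase C, calcium and diacylglycerol. The labels give no strain, no description of the deleted part and no statement that arrays of 1 genotype come from separate animals, so the p-values reflect the spread between 2 arrays of a genotype, which could be technical alone. All 4 samples share sex, age and tissue.

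The genes have no single pathway in common. Xaf1 is an interferon-inducible, pro-apoptotic partner of the caspase inhibitor XIAP. Serpina1b is 1 of several mouse copies of the gene for alpha-1 antitrypsin, a protease inhibitor that the liver secretes into plasma. Tmem178 is a membrane protein of the endoplasmic reticulum that restrains calcium signals in mouse osteoclasts, Lsm12 is an LSM-domain protein described in human cells as a receptor part for the calcium-releasing messenger NAADP, and Chn2 (beta-chimaerin) is a Rac GTPase-activating protein switched on by diacylglycerol. Pdlim2 is a PDZ-LIM protein that promotes breakdown of the NF-kappaB subunit p65 in mouse cells, and Kank4 belongs to the KANK family, which joins talin at adhesions to microtubules at the cell cortex. Cryba4 is a beta-crystallin, a structural protein of the eye lens. Ocel1 carries the domain shared by occludin and ELL proteins.

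The mouse alpha-1 antitrypsin genes are near-copies of each other, and the array reads Serpina1b only with probe sets of the extended type (suffix _x_at), whose probes can also match other transcripts. To show how alike the copies are, the same stretch at or near the annotated start of each is given below from RefSeq (build GRCm38.p6, all on the minus strand of chromosome 12), 5′ to 3′, at chr12:103738151-103738230 (Serpina1b), chr12:103863576-103863655 (Serpina1a), chr12:103904913-103904992 (Serpina1c), chr12:103773585-103773664 (Serpina1d) and chr12:103956911-103956990 (Serpina1e). Capitals mark GTTAAT, the half-site recognised by HNF1, a transcription factor of liver.
Serpina1b: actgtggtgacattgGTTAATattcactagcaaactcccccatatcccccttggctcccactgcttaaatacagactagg
Serpina1a: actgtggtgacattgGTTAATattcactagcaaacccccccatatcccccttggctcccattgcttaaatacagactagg
Serpina1c: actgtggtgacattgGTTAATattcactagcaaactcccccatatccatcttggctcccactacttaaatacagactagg
Serpina1d: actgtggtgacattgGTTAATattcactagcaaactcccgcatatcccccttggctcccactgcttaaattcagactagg
Serpina1e: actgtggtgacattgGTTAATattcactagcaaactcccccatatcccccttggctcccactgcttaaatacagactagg

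Over these 80 bases Serpina1b matched Serpina1e at 80, Serpina1a and Serpina1d at 78 each and Serpina1c at 77. The stretch was not compared with the probe sequences, so it does not show which copies the probe sets read. On either strand, GTTAAT occurs in 7.10% of the 32851 RefSeq promoter windows (250 bases before to 50 after a start). Of the 7 members with such a window, only Serpina1b holds it. The core of the interferon-stimulated response element (GAAA, any 2 bases, GAAA, either strand) occurs in 3.44% of windows and in none of the members' windows, that of Xaf1 included. A match, or none, describes these letters only. Lsm12 and Pdlim2 had no window.

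The 9 genes were read by 14 probe sets, of which 13 were tested, having 2 or more arrays at 4 log2 units or above, and 1 (of Lsm12) was too dim. Values are log2 units, differences are V1a KO minus wild type, and the lowest value of the arrays, a shared floor, was 2.30. Since the members were chosen on this contrast, their differences are a description with no test. Wild-type array 1 stood apart from the rest. Across tested probe sets the 2 V1a KO arrays correlated at 0.986 and wild-type array 2 with them at 0.974 and 0.981, but wild-type array 1 correlated with the V1a KO arrays at 0.922 and 0.919 and with wild-type array 2 at 0.924. Wild-type array 2 was therefore closer to the V1a KO arrays than to the other array of its own genotype. Without wild-type array 1 the differences of the members' lowest probe sets ran from -5.79 in Xaf1 to -1.77 in Pdlim2.

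**Figure D1:**
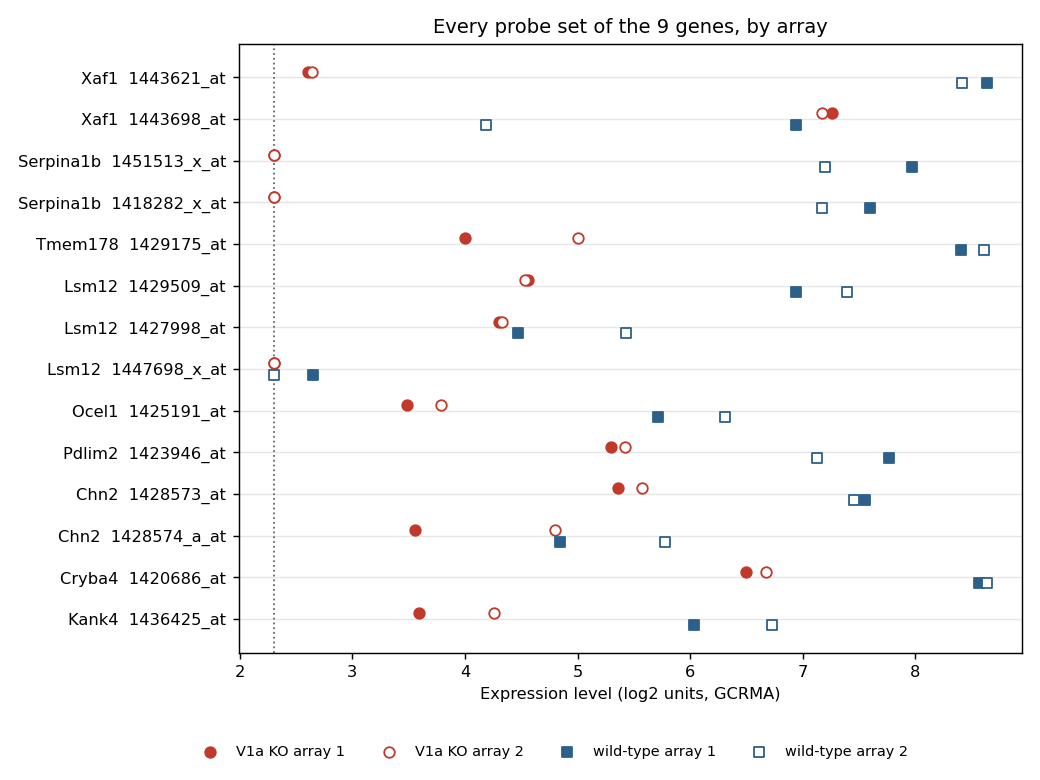
Expression level (log2 units) of each of the 14 probe sets of the 9 genes on the 2 V1a KO arrays (red circles) and the 2 wild-type arrays (blue squares), filled for array 1 and open for array 2; the dotted line is the floor of 2.30. Xaf1 has 1 probe set far lower and 1 higher in V1a KO, and both probe sets of Serpina1b lie at the floor on both V1a KO arrays.

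Xaf1 gave the largest difference and its probe sets contradicted each other. Probe set 1443621_at of Xaf1 read 2.60 and 2.64 on the V1a KO arrays, against 8.63 and 8.41 on the wild-type arrays, a difference of -5.90. The V1a KO readings lie just above the floor, while the wild-type mean of 8.52 ± 0.16 (SD, n = 2) exceeds that of 74.0% of tested probe sets. The other, 1443698_at, read 7.26 and 7.17 on the V1a KO arrays, against 6.94 and 4.19 on the wild-type arrays, a difference of 1.65. Here both V1a KO arrays lie above both wild-type arrays, and the wild-type arrays differ widely from each other. The difference was 3.02 without wild-type array 1 and 0.27 without wild-type array 2, so its size rests on single arrays. By the first probe set Xaf1 RNA is near the floor in the V1a KO glands, and by the second it is clearly read there, so the data do not settle its level in V1a KO. Among 3861 genes with more than 1 tested probe set, the differences of a gene's probe sets spanned a median of 0.40 log2 units, and 80 genes (2.07%) spanned 2 or more. Xaf1 spanned 7.55, the widest of these genes.

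Of the 4 genes with several probe sets, Serpina1b had those that went together most closely, at the floor in V1a KO and well above it in wild type. Probe set 1451513_x_at of Serpina1b read 2.30 on both V1a KO arrays, against 7.97 and 7.20 on the wild-type arrays, a difference of -5.28. Probe set 1418282_x_at of Serpina1b read 2.30 on both V1a KO arrays, against 7.59 and 7.17 on the wild-type arrays, a difference of -5.08. The groups lie far apart on both. A further probe set, annotated jointly to Serpina1b, Serpina1c and Serpina1e and so outside the rule, read 2.30 on all 4 arrays. Because differences at a floor are compressed, the size of the Serpina1b difference depends on that floor.

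Tmem178, read by 1 probe set, was lower in V1a KO without reaching the floor. It read 4.0 and 5.0 on the V1a KO arrays, against 8.40 and 8.61 on the wild-type arrays, a difference of -4.01, or 16.1-fold. The V1a KO arrays are 1 log2 unit apart, the wild-type arrays close together, and the groups do not overlap.

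Lsm12 was read by 3 probe sets of unequal brightness, and the drop stands in the brightest. Probe set 1429509_at of Lsm12 read 4.56 and 4.53 on the V1a KO arrays, against 6.94 and 7.39 on the wild-type arrays, a difference of -2.62. Probe set 1427998_at of Lsm12 read 4.30 and 4.33 in V1a KO, against 4.47 and 5.43 in wild type, a difference of -0.63. On that one the groups are separated by only 0.13 log2 units, and wild-type array 1 lies beside the V1a KO arrays. It was -1.11 without wild-type array 1 and -0.15 without wild-type array 2. The third, 1447698_x_at of Lsm12, read 2.30 on both V1a KO arrays, against 2.65 and 2.30 in wild type, and was too dim to test.

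Chn2, the Rac GTPase-activating protein that binds diacylglycerol, was read by 2 probe sets that fell on different sides of the choice. Probe set 1428573_at of Chn2 read 5.36 and 5.57 on the V1a KO arrays, against 7.55 and 7.45 on the wild-type arrays, a difference of -2.04. The arrays of each genotype lie close together there. Probe set 1428574_a_at of Chn2, of a type designed for several transcripts of a gene, read 3.56 and 4.80 in V1a KO, against 4.85 and 5.78 in wild type, a difference of -1.13. On it V1a KO array 2 and wild-type array 1 nearly meet, and the difference was -1.75 without V1a KO array 2 and -0.51 without V1a KO array 1.

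The remaining 4 genes had 1 probe set each, so no second reading was at hand. Ocel1 read 3.49 and 3.78 on the V1a KO arrays, against 5.71 and 6.31 on the wild-type arrays, a difference of -2.38. Kank4 read 3.59 and 4.26 in V1a KO, against 6.03 and 6.72 in wild type, a difference of -2.45. Both genes were moderately bright in wild type and dim in V1a KO, with no overlap. Pdlim2 read 5.30 and 5.42 in V1a KO, against 7.76 and 7.13 in wild type, a difference of -2.09. Cryba4, the lens protein gene, read 6.50 and 6.67 in V1a KO, against 8.57 and 8.63 in wild type, a difference of -2.02. Pdlim2 and Cryba4 were thus still clearly read in V1a KO, at 4.25-fold and 4.04-fold lower levels.

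"Lost" applies to few of the 9. Taking the lowest probe set of each gene, both V1a KO arrays lay within 0.5 log2 units of the floor for 2 genes, Xaf1 and Serpina1b. For 4 genes (Lsm12, Pdlim2, Chn2 and Cryba4) both V1a KO arrays stayed at 4 or above, and for 2 (Tmem178 and Kank4) 1 V1a KO array did. In wild type these probe sets spanned 5.71 to 8.63, a middle range of the array. The 2 V1a KO arrays differed on them by a median of 0.18 log2 units, against 0.15 over all tested probe sets. The 2 wild-type arrays differed by a median of 0.45, against 0.44 over all tested probe sets. Median replicate spread on these probe sets was thus close to that of all tested probe sets, though the choice itself asked for low readings on both V1a KO arrays.

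**Figure D2:**
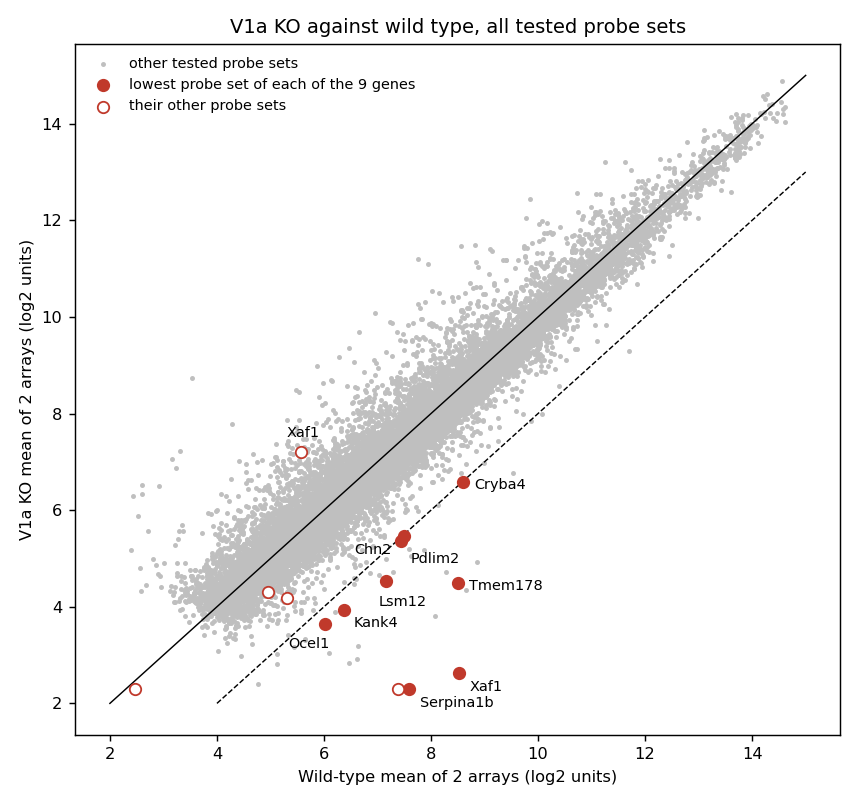
Mean of the 2 V1a KO arrays against the mean of the 2 wild-type arrays (log2 units) for the 17228 tested probe sets (grey), the lowest probe set of each of the 9 genes (filled red) and their other probe sets (open red, including the Lsm12 probe set that was too dim to test). The solid line marks equal levels and the dashed line a level 2 log2 units lower in V1a KO; Xaf1 appears once far below the dashed line and once above the solid line.

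The edge of the choice is not sharp, and the 9 genes are not all that meet it. By the wild-type mean minus the higher V1a KO array, the members run from 5.88 log2 units in Xaf1 to 1.93 in both Chn2 and Cryba4. Cited2 at 1.93 and Cd59a at 1.91 lay at the same edge without being members, and Cnot7 lay just below it at 1.88. At 1.9 or more there were 22 genes, 9 of them members. By the stricter gap between the lowest wild-type array and the highest V1a KO array, 4 of the 9 members reached 2 log2 units (Xaf1, Serpina1b, Tmem178 and Lsm12, with 5 probe sets) and 5 did not. The non-members Cuedc1, Cap1, Zfp991, Mmp2 and Itga9 reached it as well. Over all tested probe sets 15 of 17228 (0.0871%) reached that gap downward, and 15 (0.0871%) reached it upward. These counts rest on single arrays, and leaving an array out can only widen a gap. Without wild-type array 1 they were 26 downward and 28 upward, without wild-type array 2 they were 65 and 434, and without V1a KO array 2 there were 35 downward, with 8 of the 9 members.

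In limma's fit over all 17228 tested probe sets, 0 (0%) passed an adjusted p of 0.05, and 885 (5.14%) had an unadjusted p under 0.05. The wild-type arrays were 2 log2 units or more apart on 3.48% of probe sets, against 0.226% for the V1a KO arrays. Both probe sets of the targeted gene, Avpr1a, read between 2.31 and 2.60 on all arrays, so they do not check the genotype labels. Adrenal markers were high throughout: Star, which carries cholesterol into mitochondria, read 14.24 and 14.17 in V1a KO, against 14.12 and 14.23 in wild type. Cyp11a1, the first enzyme of steroid synthesis, read 13.99 and 13.94 in V1a KO, against 14.01 and 13.91 in wild type, and Th, which starts catecholamine synthesis in the medulla, read 12.82 and 11.81 in V1a KO, against 12.61 and 12.05 in wild type. The mean of 10 cortex markers was 12.40 and 12.36 on the V1a KO arrays, against 12.48 on both wild-type arrays. The mean of 7 medulla markers was 11.73 and 10.86 in V1a KO, against 11.94 and 11.07 in wild type. Lymphocyte markers (5 of 7 near the floor on all arrays) and kidney markers (4 of 6) had means from 2.98 to 3.44 in V1a KO, against 3.09 to 3.54 in wild type. Lens and neural markers (3 of 6 near the floor) had means of 4.62 and 4.41 in V1a KO, against 4.77 and 4.44 in wild type. Only the 2 neural ones, Snap25 and Syt1, were bright enough to test. The lens ones (Mip, Bfsp1, Bfsp2 and Lim2) read 3.46 or less on every array. Macrophage, endothelium and smooth muscle markers had means from 5.94 to 7.92 in V1a KO, against 6.19 to 8.08 in wild type. Of the 4 tested smooth muscle markers, both V1a KO arrays lay below both wild-type arrays in 3 and above them in 1, with a median of -0.59. For the 10 cortex markers these counts were 4 and 0, with a median of -0.10, and for the 5 tested macrophage markers 2 and 1. For medulla and endothelium both counts were 0. Over all tested genes the shares were 20.5% and 17.1%. Fat markers moved with single arrays, at means of 5.51 and 7.47 in V1a KO, against 8.12 and 6.96 in wild type, and Adipoq, a fat cell hormone, read 7.76 and 10.16 in V1a KO, against 9.60 and 8.84 in wild type. Of the 6 tested fat markers 4 read lower and 2 higher in V1a KO, with a median of -0.14. Both V1a KO arrays lay below both wild-type arrays in 2 of the 6, as they did in 20.5% of all tested genes. Those 2, named after their values were seen, are markers of brown fat. Ucp1, the uncoupling protein of brown fat mitochondria, read 2.80 and 5.91 in V1a KO, against 10.05 and 7.24 in wild type, a difference of -4.29. Cidea, a lipid droplet protein, read 3.37 and 6.06 in V1a KO, against 9.78 and 6.78 in wild type, a difference of -3.57. The part of any of these cells in the members' differences was not tested, and fewer cells of a type and less RNA per cell cannot be told apart in whole glands.

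The mean of the liver markers, set beside Serpina1b because the liver makes alpha-1 antitrypsin, was high on 1 array. Over 13 genes it was 2.81 and 2.97 on the V1a KO arrays, against 5.58 on wild-type array 1 and 2.77 on wild-type array 2. Alb, serum albumin, read 2.43 on both V1a KO arrays, against 8.86 and 2.42 on the wild-type arrays. Of the 13, 2 lay within 0.5 of the floor on all arrays. Hp, the only 1 of the 13 bright enough to be tested, did not follow this order. It read 5.97 and 8.27 in V1a KO, against 8.68 and 6.44 in wild type. Serpina1b itself read 7.17 to 7.20 on wild-type array 2, where the mean of the liver markers lay no higher than in V1a KO. Leaving out wild-type array 1 gave differences of -4.90 and -4.87 for its 2 probe sets. The part of liver RNA on wild-type array 1 in the Serpina1b difference was not tested beyond these values.

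The other alpha-1 antitrypsin and related serpin genes split into 3 patterns. Of 18 listed, 9 were named on the array, and 6 of these read under 3 on every array. Serpina1c, a close copy of Serpina1b, read 2.30 on both V1a KO arrays, against 8.26 and 2.30 on the wild-type arrays. That is the order of Alb and not that of Serpina1b. Serpina6, which encodes corticosteroid-binding globulin, the plasma carrier of corticosterone, read 3.42 and 4.57 in V1a KO, against 6.08 and 6.73 in wild type. Its difference was -2.41 (SE 0.50), with both V1a KO arrays below both wild-type arrays (limma unadjusted p = 0.0104, adjusted p = 0.794). Serpina3n, a serine protease inhibitor, read 2.50 and 3.12 in V1a KO, against 5.77 and 4.49 in wild type. Its difference was -2.32 (SE 0.54, limma unadjusted p = 0.0148, adjusted p = 0.794). Neither passed the adjusted threshold, and Serpina3n passed the brightness filter through the wild-type arrays alone. Serpina6 reached 4 on V1a KO array 2 but not on V1a KO array 1. By the wild-type mean minus the higher V1a KO array, Serpina3n at 2.01 is among the 22 genes at 1.9 or more. It thus meets the measure that chose the members, and its p-value is a description. Serpina6 lies just below, at 1.84. The part of liver RNA in these differences was not tested.

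**Figure D3:**
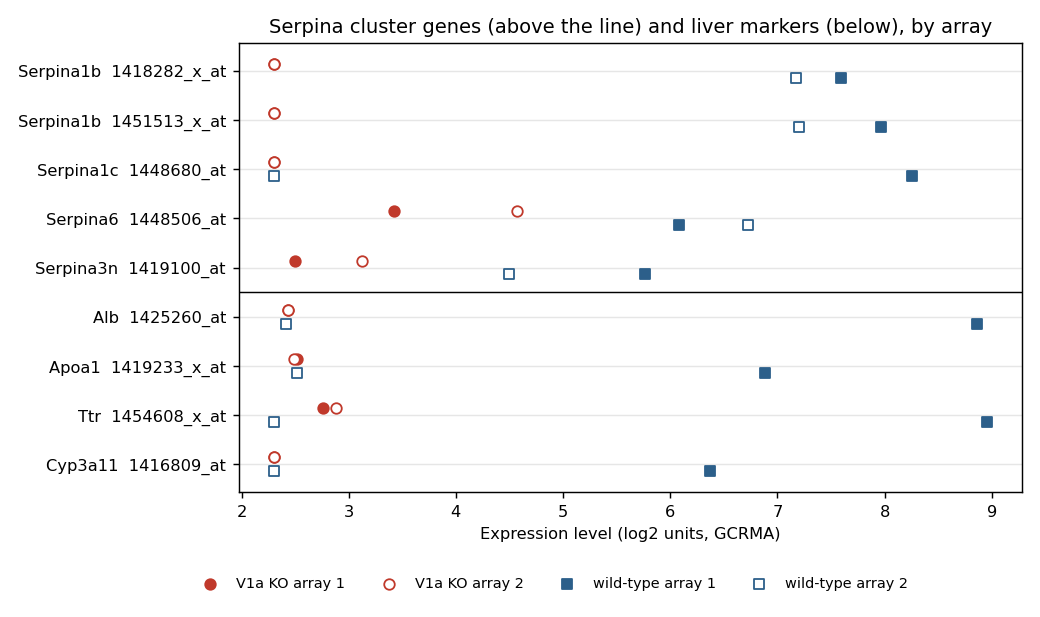
Expression level (log2 units) of serpin genes of the chromosome 12 cluster (above the line) and of 4 of the 13 liver markers (below) on the V1a KO arrays (red circles) and wild-type arrays (blue squares), filled for array 1 and open for array 2. Serpina1c and these 4 liver markers are high on wild-type array 1 alone, while Serpina1b, Serpina6 and Serpina3n are higher on both wild-type arrays than on both V1a KO arrays. The 4 were picked for display, and Hp, not shown, is high on V1a KO array 2 as well.

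The neighbours of the members on their chromosomes were compared by taking the nearest tested gene on each side in the RefSeq gene table. Of these 18 neighbours 13 read lower and 5 higher in V1a KO, with a median of -0.19, and 0 passed limma's adjusted threshold (0% of all genes did), while 3 had an unadjusted p under 0.05 (5.06% of the 10110 genes did). Those 3 were Serpina6 and Serpina3n on the 2 sides of Serpina1b, and Pkdcc, a secreted protein kinase gene, on 1 side of Tmem178. Serpina3n passed the brightness filter through the wild-type arrays alone, so in these counts it could only stand as lower in V1a KO. It also met the measure by which the members were chosen. The nearest tested gene can be far away: in GRCm38.p6 Pkdcc lies 2213 kb from Tmem178, Serpina3n 668 kb and Serpina6 70.9 kb from Serpina1b, while Nr2f6 lies 0.43 kb from Ocel1. Pkdcc read 6.13 and 6.14 in V1a KO, against 7.86 and 7.16 in wild type, and so differed by -1.37 (SE 0.30, limma unadjusted p = 0.0118, adjusted p = 0.794). On its other side, Sos1, a Ras exchange factor, differed by 0.12 (SE 0.17). Both V1a KO arrays lay below both wild-type arrays in 7 of the 18 and above them in 0, where 20.5% and 17.1% of all genes did so. The neighbours of Xaf1, Med31 and Mybbp1a, differed by -0.16 and 0.26, and those of Cryba4, Pitpnb and Tpst2, by -0.35 and -0.19. For Lsm12 they were Tmem101 at -0.12 and G6pc3 at -0.53, for Ocel1 Use1 at -0.17 and Nr2f6 at -0.49, and for Pdlim2 Ccar2 at 0.23 and Sorbs3 at -0.74. Tril and Prr15 beside Chn2 differed by -0.20 and -0.35, and Tm2d1 and Usp1 beside Kank4 by 0.13 and 0.12. Outside the serpin cluster and Pkdcc, then, no nearest neighbour differed by as much as 1 log2 unit.

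**Figure D4:**
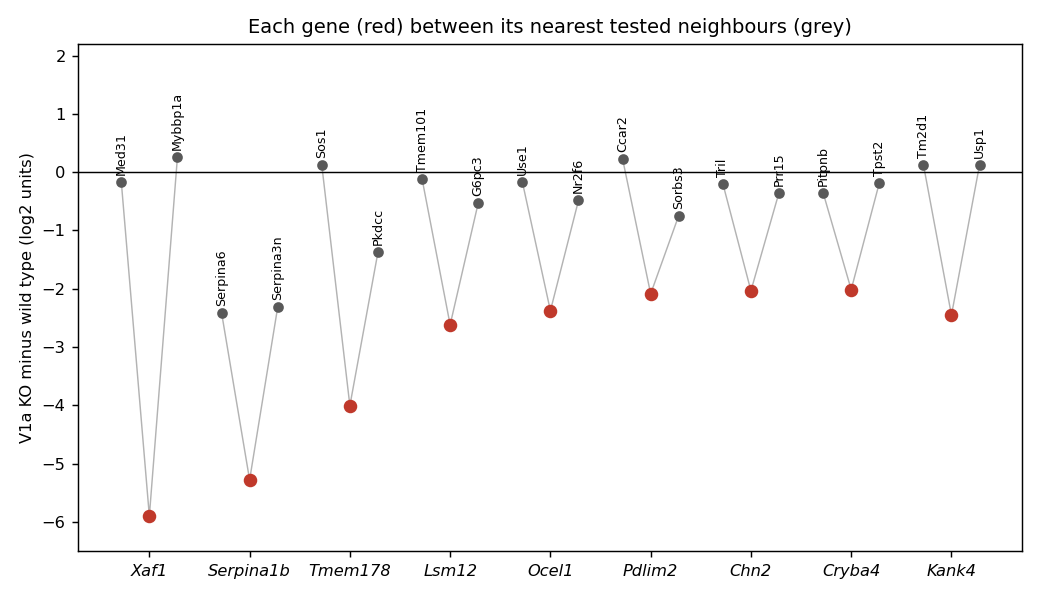
Difference V1a KO minus wild type (log2 units) of the lowest probe set of each of the 9 genes (red) and of the nearest tested gene on its lower-coordinate side (left grey point) and higher-coordinate side (right grey point). The neighbours of Serpina1b lie at -2.41 and -2.32, Pkdcc on 1 side of Tmem178 lies at -1.37, and the others lie between -0.74 and 0.26.

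Relatives and pathway partners of the members were followed in 10 lists of 137 genes, of which 119 were named on the array and 82 tested. Of the 82, 40 read higher and 42 lower in V1a KO, with a median of -0.02, against -0.05 over all tested genes. In limma's fit 0 passed the adjusted threshold, and 8 had an unadjusted p under 0.05. Of these 5 were lower in V1a KO, as were 2.93% of all tested genes, and 3 were higher, as were 2.14% of all tested genes. Both V1a KO arrays lay below both wild-type arrays in 17 of the 82 and above them in 12, counts near the 20.5% and 17.1% of all genes. The 2 that lay 2 log2 units apart were Serpina6 and Serpina3n, of which Serpina3n also met the measure by which the members were chosen.

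For Xaf1, the list of XIAP and caspases had 9 tested genes with a median of 0.09. Its smallest p values belonged to Birc3, an inhibitor of apoptosis, at -0.56 (SE 0.31), and Diablo, which releases caspases from such inhibitors, at -0.40 (SE 0.23). The interferon-inducible list had 12 tested genes and a median of -0.17. Irf9, a subunit of the interferon-activated factor ISGF3, read 6.83 and 6.79 in V1a KO, against 6.16 and 6.19 in wild type, and so differed by 0.63 (SE 0.16, limma unadjusted p = 0.0176, adjusted p = 0.794). Stat2, another subunit, differed by 0.52 (SE 0.22) but passed the brightness filter through the V1a KO arrays alone. Across the list 3 genes read higher and 9 lower, with a range of -0.48 to 0.63.

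For Tmem178, its paralog Tmem178b read 2.30 on all 4 arrays. The store-operated calcium list had 12 tested genes with a median of 0.06. Nfatc2, a calcium-activated transcription factor, read 3.77 and 3.43 in V1a KO, against 4.70 and 4.48 in wild type, and so differed by -0.99 (SE 0.21, limma unadjusted p = 0.0114). Nfatc1, of the same family, read 5.79 and 5.78 in V1a KO, against 5.30 and 5.24 in wild type, and so differed by 0.52 (SE 0.16, limma unadjusted p = 0.0325). The adjusted p was 0.794 for both, and they lay on opposite sides of 0. Nfatc2 passed the brightness filter through the wild-type arrays alone. For Lsm12, the list of LSM proteins and NAADP channels had 14 tested genes with a median of -0.06. Lsm3 and Lsm8, subunits of the ring that binds U6 RNA, differed by -0.61 (SE 0.20) and -0.64 (SE 0.22), with limma unadjusted p values of 0.0447 and 0.0469 and an adjusted p of 0.794 each.

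For Chn2, its paralog Chn1 read 5.21 and 4.88 in V1a KO, against 5.72 and 4.41 in wild type, a difference of -0.02. The 9 tested genes of Rac and diacylglycerol signalling had a median of -0.02 and a range of -0.19 to 0.29, with Prkcb, a protein kinase C, at 0.29 (SE 0.20) and Rasgrp2, a Rap exchange factor, at -0.13 (SE 0.16). For Pdlim2, the PDZ-LIM list had 6 tested genes and a median of 0.02. Pdlim4, Pdlim5 and Pdlim7 differed by -0.42, 0.03 and 0.03, Limk2, a kinase of actin regulation, by -0.40 (SE 0.52), and Pdlim1 and Pdlim3 were too dim to test. For Kank4, its paralogs Kank2 and Kank3 differed by -0.02 and 0.14 and Kank1 was too dim to test. The list of KANK partners had 11 tested genes and a median of -0.02. Ppfibp1, a liprin of the cortical complex, read 8.10 and 8.01 in V1a KO, against 7.60 and 7.46 in wild type, and so differed by 0.53 (SE 0.17, limma unadjusted p = 0.0371, adjusted p = 0.794), and Clasp2, a microtubule-binding protein, differed by 0.76 (SE 0.59).

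For Cryba4, the crystallin list had 5 tested genes and a median of 0.13. Crybb1, a beta-crystallin, read 3.67 on both V1a KO arrays, against 4.47 and 3.67 in wild type, too dim to test, while the other beta-crystallins named on the array (Cryba1, Cryba2, Crybb2 and Crybb3) read 2.42 or less on every array. Cryab, a small heat shock protein, differed by -0.17 (SE 0.24) in its brightest probe set and by -0.75 (SE 0.18, limma unadjusted p = 0.0154, adjusted p = 0.794) in a dimmer one. Crym, a thyroid hormone-binding protein, read 4.56 and 6.48 in V1a KO, against 3.68 and 3.75 in wild type, and so differed by 1.81 (SE 0.72), with the V1a KO arrays far apart, and it passed the brightness filter through those arrays alone. Cryzl1, a quinone oxidoreductase-like gene, differed by -0.44 (SE 0.24). For Ocel1, Ell2 and Ell, elongation factors of RNA polymerase II, were the only tested relatives and differed by 1.29 (SE 0.71) and 0.12 (SE 0.17).

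**Figure D5:**
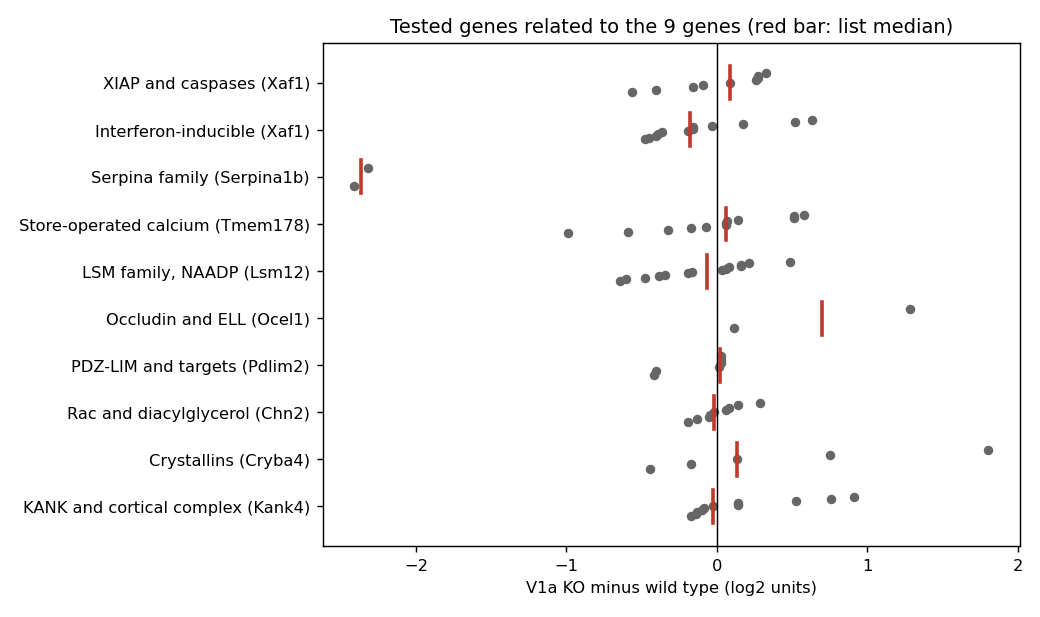
Difference V1a KO minus wild type (log2 units) of each tested gene (grey points) in the 10 lists of relatives and partners, with the member each list belongs to in brackets and the list median as a red bar. The medians lie between -0.17 and 0.13 except for the serpin list and the occludin and ELL list, which have 2 tested genes each.

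The genes most like the members by the gap between the lowest wild-type and the highest V1a KO array, over the 4 arrays, were Cuedc1, Cap1, Zfp991, Mmp2, Itga9, Cd59a, Lpcat2, Sdc4, Fam32a and Cnot7. Cap1, an actin-binding protein, did so with both of its probe sets, at differences of -3.93 and -3.44, as did Mmp2, a gelatinase, at -2.33 and -2.32. Lpcat2, a lysophospholipid acyltransferase, had differences of -2.58 and -2.31. In others the probe sets parted as in Xaf1. Sdc4, a heparan sulfate proteoglycan, read 4.89 and 4.96 in V1a KO, against 6.86 and 6.72 in wild type, on 1 probe set, and 8.97 and 9.18 in V1a KO, against 8.21 and 4.90 in wild type, on the other. Cnot7, a deadenylase, differed by -2.01, 0.21 and 0.63, and Zfp991 by -2.38 and 0.41 on its tested probe sets.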

How the data were processed

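Adrenal RNA was hybridised to Affymetrix Mouse Genome 430 2.0 arrays, 1 array per sample. The table deposited by the authors gives each probe set's level on a log2 scale, summarised with GCRMA from Bioconductor 3.14 per the labels' protocols. That method models background from probe sequence, normalizes between arrays and leaves weak probe sets at a floor. No header states the scale, which follows from the range of the values (2.30 to 14.9). The number of arrays limits the precision.

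Nothing further was normalized. After 64 control probe sets were left out, 45037 remained, and 17228 with 4 log2 units or more on at least 2 arrays were tested. Genes came from the platform annotation, only where a probe set has 1 gene (34945), with symbols checked against GRCm38.p6 (34741 matched, 0 changed). The genotypes were set against each other with limma 3.58.1 (R 4.3.3; lmFit, eBayes, genotype as the only term), with Benjamini-Hochberg adjustment across all tested probe sets. SE is limma's moderated standard error and SD is over 2 arrays. The brightest tested probe set stood for a gene in lists and among neighbours. The limma fit was tested on simulated arrays with known changes. That check covered the mean estimated differences and the share of low p-values among unchanged probe sets. It set no demand on how many true changes pass the adjusted threshold.

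The members and lists were chosen with earlier results of these data known. Named are all members, the closest paralogs (Crybb1 and Cryab among crystallins), the 2 genes of each list with the smallest p, the nearest tested neighbours, the 10 non-members with the widest gap, and Star, Cyp11a1, Th, Alb and Adipoq among markers. Avpr1a was added as the targeted gene. Cited2, the other beta-crystallins, Ucp1, Cidea, Hp and the lens and neural markers were added after their values were seen.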

Additional observations from a re-analysis of the deposited data

How the results depend on the processing

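The lowest probe set of each member differed by -6.01 to -1.77 over the alternatives that held it. Serpina1b dropped out with plain probe sets only, and Ocel1 with the filter at 6 log2 units. Among the members' other probe sets, with single arrays left out, Xaf1 1443698_at moved from 0.27 to 3.02. Lsm12 1427998_at moved from -1.11 to -0.15 and Chn2 1428574_a_at from -1.75 to -0.51. Serpina1b 1418282_x_at moved from -5.29 to -4.87. Its V1a KO readings both lay at the floor, so leaving out a V1a KO array could not move it. The lowest probe set of Serpina1b, at the floor in the same way, moved from -5.67 to -4.90, and that of Tmem178, off the floor, from -4.51 to -3.50. The count passing limma's adjusted threshold was 2 in place of 0 with a filter at 6 log2 units, with quantile normalization, with arrays centred on their medians and with plain probe sets only. Each time these were 1 probe set of Xaf1, which was chosen on this contrast, and 1 of Adi1. With a gap of 1.5 log2 units 34 probe sets lay lower and 28 higher and all 9 members were counted, and with a gap of 3 there were 7 and 9. With 1 array omitted at a time there were 20 to 65 lower, 20 to 434 higher and 4 to 8 members, since fewer arrays can only widen a gap; limma called 0 probe sets each time, with the lone array assumed to vary as the other genotype does. The median of the related genes lay between -0.08 and 0.08 and 0 of them passed under every alternative. Replicate numbers are shared between genotypes, but nothing in the labels pairs them (correlation of deviations 0.154); with the replicate number as a block, limma called 0 probe sets. Probe sets near the floor limit what can be read as a level.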
